A study of Mus musculus with 22 samples.

Results

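The genes described here are 9 factors, regulators and targets of the YAP/TAZ-TEAD pathway: Yap1, Wwtr1 (which encodes TAZ), Tead1, Tead4, Lats2, Ajuba, Amotl2, Ankrd1 and Axl. They were chosen by name, and each matched 1 line of the 55415 in the expression table. RNA was taken from mpkCCD, an immortalised cell line of mouse cortical collecting duct, here a secondary clone that was grown on transwells and ended in serum-free medium with dexamethasone in every group. Wild-type (WT) cells without dDAVP (3 libraries) and with dDAVP (3 libraries) form 2 groups. dDAVP, or desmopressin, is an agonist of the vasopressin V2 receptor. The other 8 groups are the GFP-negative and GFP-positive fractions of the reporter lines C1, C11, C43 and C50, all given dDAVP, with 2 libraries per fraction. Each reporter line is 1 clone, and the labels do not name the promoter that drives its GFP, although the series title ties the reporter to aquaporin-2 (Aqp2). The labels name several dDAVP doses and times and do not assign them to libraries.

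YAP1 and TAZ are transcriptional coactivators that do not bind DNA themselves and reach their target genes through the TEAD proteins. The Hippo kinases, of which LATS2 is one of the last in the chain, phosphorylate YAP1 and TAZ and so hold them in the cytoplasm or mark them for degradation. In epithelia the pathway is known to respond to cell density, cell shape and tension in the actin cytoskeleton. Much of this control acts on the proteins and their location, which RNA levels do not show.

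TEAD proteins bind a short DNA core, GGAATG, which reads CATTCC on the other strand, and a search for it places the members' promoters beside their expression. RefSeq promoters of build GRCm38.p6, running from 250 bases before to 50 bases after a transcription start, were matched by symbol for 7 of the 9 genes, and both strands were searched. Tead1 and Tead4 had no entry. At least 1 promoter of each of the 7 genes held the core, against 16.6% of all 27025 genes and 14.7% of all 32851 promoters in the same table. Ankrd1 and Ajuba each held 2 copies, against 1.57% of genes with 2 or more. Of 18 other genes of a published YAP/TAZ target signature, 11 had an entry and 3 of these held the core. These are letter matches and not measured binding, and the genes were named because of their link to TEAD. The 3 promoters shown whole belong to genes that were lower in GFP-positive cells and run over the 250 bases before the start, 5′ to 3′ on the gene's strand, with the core in capitals. All 3 genes lie on the minus strand. The Ankrd1 stretch is chr19:36119845-36120094, that of Ajuba chr14:54577662-54577911 and that of Wwtr1 chr3:57575911-57576160.
Ankrd1: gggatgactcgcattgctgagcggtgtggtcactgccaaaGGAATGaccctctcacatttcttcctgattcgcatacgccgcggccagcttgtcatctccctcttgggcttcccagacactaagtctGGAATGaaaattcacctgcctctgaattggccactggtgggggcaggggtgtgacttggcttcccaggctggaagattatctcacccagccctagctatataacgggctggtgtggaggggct
Ajuba: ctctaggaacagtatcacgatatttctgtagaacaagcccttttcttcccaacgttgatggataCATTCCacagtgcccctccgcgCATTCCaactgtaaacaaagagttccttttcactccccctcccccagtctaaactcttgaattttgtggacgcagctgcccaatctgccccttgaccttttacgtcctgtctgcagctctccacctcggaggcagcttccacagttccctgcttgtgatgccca
Wwtr1: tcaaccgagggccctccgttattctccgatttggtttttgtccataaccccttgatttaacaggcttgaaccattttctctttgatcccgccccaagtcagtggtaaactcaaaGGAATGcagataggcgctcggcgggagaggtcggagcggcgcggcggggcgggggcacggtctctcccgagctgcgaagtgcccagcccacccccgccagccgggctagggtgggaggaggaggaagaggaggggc
For the other 4 genes 24 bases around the core are shown. They lie at chr7:25788952-25788975 (minus strand, Axl), chr9:8004723-8004746 (minus strand, Yap1), chr9:102717730-102717753 (plus strand, Amotl2) and chr14:57746105-57746128 (minus strand, Lats2).
Axl: aattctacaGGAATGtttaccaga
Yap1: gagtctgcaGGAATGtagcgacgc
Amotl2: aaactctcaCATTCCtggcatagc
Lats2: gacgcccgtGGAATGccaacaatg
The first base of the core, on the gene's strand, lay 210 and 123 bases before the start in Ankrd1, 186 and 164 in Ajuba and 136 in Wwtr1, whose second promoter in the table holds the same copy 170 bases before its start. It lay 233 bases before the start in Axl, 141 in Yap1 and 65 in Amotl2. In Lats2 it was base 5 after the start, and a second Lats2 promoter in the table had no match.

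Expression is in the authors' TPM, relative transcript abundances corrected for transcript length, which can be compared between genes but keep no sequencing depth. The depth of each library is therefore unknown, and the spread between libraries is the only measure of precision. Aqp2 was 64.1 to 74.9 TPM in WT cells without dDAVP and 2759 to 3025 TPM with it. The GFP transcript was 5.31 to 17.6 TPM in the 8 GFP-negative and 1065 to 1567 TPM in the 8 GFP-positive libraries. All 9 epithelial markers on a fixed list reached a mean of 1 TPM or more in every condition. Of 12 principal cell markers 9 did so in WT cells, with Scnn1b, Kcnj1 and Elf5 under it. No fibroblast marker of 9 and no endothelial marker of 7 reached a mean of 1 TPM, and Col1a1 and Pecam1 stayed at or under 0.66 and 1.13 TPM in all 22 libraries. Of 8 leukocyte markers Csf1r and Cd68 reached it, while Ptprc averaged 0.343 to 0.737 TPM. GFP-negative replicate 1 of clone C50 stood apart, with 7.92% of TPM in ribosomal-protein genes against 3.71% to 5.91% in the other 21 libraries. The members' values with and without it are given where it changes a call, a direction or the size by much.

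All 9 genes were expressed at a mean above 1 TPM and were tested in every comparison. Amotl2, an angiomotin family scaffold that binds YAP1 and is itself a target, had the highest mean over 22 libraries, 187 TPM (SD 95.8). Ajuba, a LIM protein that inhibits LATS kinases, followed with 107 TPM (SD 39.9), and Ankrd1, a muscle-type ankyrin repeat protein widely used as a YAP/TAZ target, with 99.1 TPM (SD 63.3). Wwtr1 averaged 49.9 TPM (SD 11.4), above its paralog Yap1 at 18.0 TPM (SD 3.32). Lats2 averaged 27.4 TPM (SD 8.69), Tead4 12.7 TPM (SD 2.68), Tead1 9.51 TPM (SD 3.17), and Axl, a receptor tyrosine kinase, 7.67 TPM (SD 9.40). Wwtr1 lay above Yap1 in every library, since its lowest value (29.1 TPM) exceeded the highest of Yap1 (24.3 TPM). Between the highest and the lowest group mean, Yap1 and Tead4 spanned 1.56-fold and 1.58-fold. The span was 2.24-fold for Wwtr1, 2.53-fold for Tead1, 3.50-fold for Lats2, 4.11-fold for Ajuba, 4.46-fold for Amotl2 and 10.5-fold for Ankrd1. Without the library that stood apart, Tead4 spanned 1.53-fold, Ajuba 4.87-fold, Amotl2 4.07-fold and Ankrd1 11.6-fold.

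**Figure D1:**
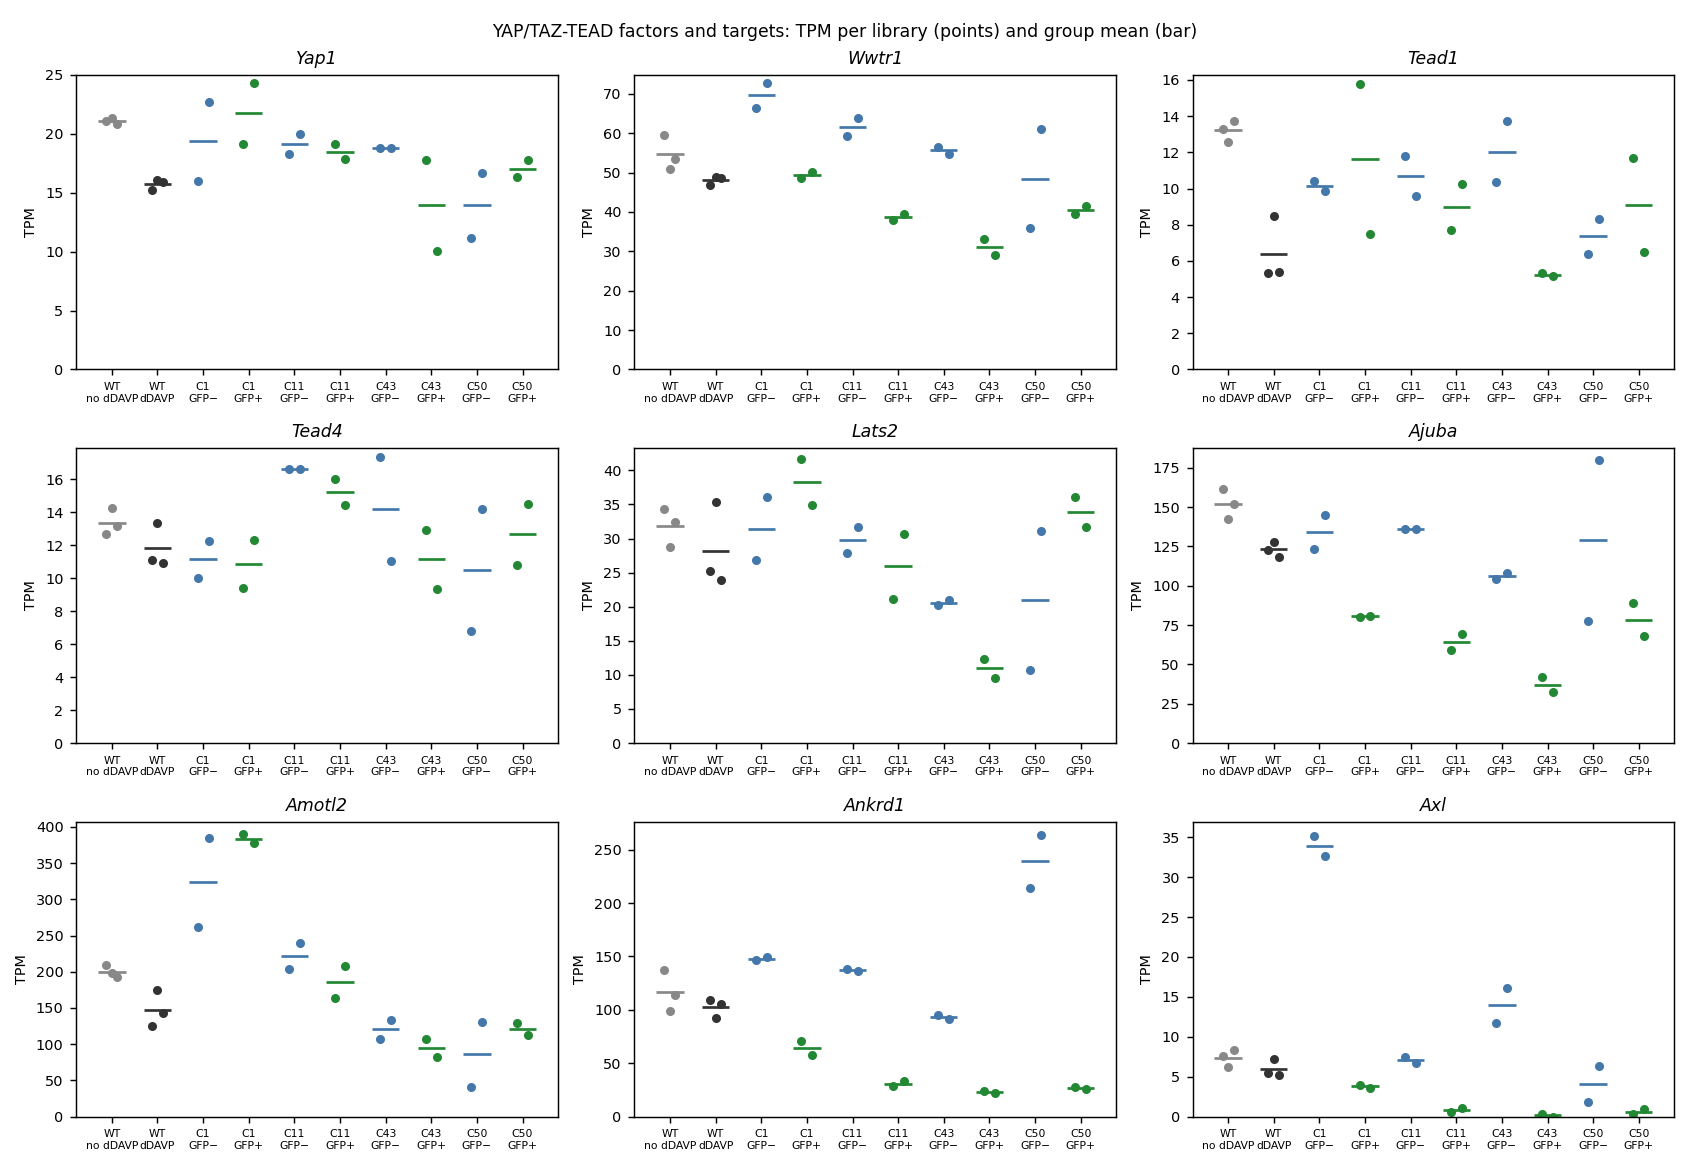
TPM of the 9 genes (y axes, from 0) in the 10 groups, with 1 point per library and a bar at the group mean, grey for WT without dDAVP, black for WT with dDAVP, blue for GFP-negative and green for GFP-positive. The GFP-positive libraries of Ankrd1 lie at 21.9 to 70.7 TPM, all below the GFP-negative libraries at 90.9 to 264 TPM.

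The first comparison asks what dDAVP did to these transcripts in WT cells. Yap1 and Tead1 were lower with dDAVP, by 0.40 and 0.97 on the log2 scale, and no member was called higher. These 2 of 9 members compare with 8.88% of all 13494 genes called, 6.51% lower and 2.37% higher. Changes are differences of mean log2(TPM + 1), which understates the change of genes at low TPM, and called means a limma adjusted p under 0.05. The median change over all genes was -0.157, and -0.000386 after median-ratio scaling.

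Of the coactivators, Yap1 (ENSMUSG00000053110) read 21.1, 21.4 and 20.8 TPM without dDAVP and 15.2, 16.1 and 15.9 TPM with dDAVP. The 2 groups did not overlap, and the ratio of means was 0.746. The change was -0.40 (standard error 0.0841, limma adjusted p 0.0324), and after median-ratio scaling it was -0.24 (adjusted p 0.148). Wwtr1 (ENSMUSG00000027803) read 59.5, 51.0 and 53.4 TPM without and 46.9, 48.9 and 48.7 TPM with dDAVP. Its groups did not overlap either, but the change of -0.175 (standard error 0.084) was not called (adjusted p 0.202).

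Of the DNA-binding partners, Tead1 (ENSMUSG00000055320) read 13.3, 12.6 and 13.7 TPM without dDAVP and 5.32, 8.48 and 5.40 TPM with dDAVP. All 3 treated libraries lay below all 3 untreated ones, and the untreated mean was 2.06 times the treated mean. The standard error of its change of -0.97 was 0.175 (limma adjusted p 0.0213), and the change stayed called after median-ratio scaling (-0.81, adjusted p 0.0281). Tead4 (ENSMUSG00000030353) overlapped between the groups, at 12.7 to 14.3 TPM without and 10.9 to 13.4 TPM with dDAVP, a change of -0.17 (adjusted p 0.351). Without any 1 of 5 of the 6 libraries neither Yap1 nor Tead1 was called, with adjusted p of 0.0897 to 0.112 for Yap1 and 0.0657 to 0.083 for Tead1. Without dDAVP replicate 2, the treated library with the highest Tead1, both were called (limma adjusted p 0.0357 and 0.00635), and so were Ajuba (0.044) and Amotl2 (0.0153). Over all genes, leaving out 1 library at a time gave 314 to 2038 calls, against 1198 with all 6. The share in each single fit is not reported here.

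Ajuba and Amotl2 fell just short of the threshold. Ajuba (ENSMUSG00000022178) read 161, 142 and 152 TPM without and 123, 128 and 118 TPM with dDAVP, a change of -0.30 with standard error 0.075 (limma adjusted p 0.051). Amotl2 (ENSMUSG00000032531) read 209, 198 and 192 TPM without and 126, 175 and 142 TPM with dDAVP, a change of -0.45 with standard error 0.12 (adjusted p 0.0602). Neither gene overlapped between the groups, as was so for 5 of the 9 members, all lower with dDAVP, against 28.7% of all genes lower and 7.12% higher without overlap. The other targets overlapped between the groups. Lats2 (ENSMUSG00000021959) was 31.9 ± 2.83 TPM without and 28.2 ± 6.24 TPM with dDAVP (SD, n = 3 each, limma adjusted p 0.422). Ankrd1 (ENSMUSG00000024803) was 117 ± 19.3 and 102 ± 8.75 TPM (SD, n = 3 each, limma adjusted p 0.379). Axl (ENSMUSG00000002602) was 7.36 ± 1.09 and 5.96 ± 1.04 TPM (SD, n = 3 each, limma adjusted p 0.311). The summed TPM of 24 G2 and M phase genes also differed without overlap, at 2124 to 2315 without dDAVP and 1260 to 1815 with it. Summed principal cell markers were 925.7 to 1031 TPM without and 1174 to 1365 TPM with dDAVP, and epithelial markers 11490 to 12700 and 15810 to 17060 TPM. Single markers of both lists went both ways, and abundant ones carried the sums. Mean Fxyd4 rose from 258 to 539 TPM, Avpr2 from 176 to 262 TPM and Krt18 from 5750 to 8880 TPM. Scnn1a fell from 218 to 144 TPM, Tfcp2l1 from 49.8 to 37.6 TPM, Epcam from 639 to 534 TPM and Cdh1 from 579 to 484 TPM. Proximal tubule markers, of which Lrp2 alone of 8 reached a mean of 1 TPM, were 10.3 to 16.01 and 5.17 to 8.75 TPM. The part of these lists in the members' changes was not tested.

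The fractions of each clone were then compared, all under dDAVP. Over the 4 clones, 4 genes were lower in GFP-positive cells: the targets Axl and Ankrd1, the LATS inhibitor Ajuba and the coactivator Wwtr1. Axl differed by -2.56, Ankrd1 by -2.11, Ajuba by -0.98 and Wwtr1 by -0.54 on the log2 scale. These 4 of 9 members compare with 35.3% of 13113 genes called, 23.2% lower and 12.1% higher. No member was called higher. The members' median difference was -0.24, beside -0.0628 over all genes. In bulk libraries fewer cells of a kind and less RNA per cell cannot be told apart. The labels do not say whether libraries came from separate cultures, so p-values measure the spread between these libraries.

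Ankrd1 separated the fractions completely. In C1 it read 146 and 149 TPM in the GFP-negative and 70.7 and 57.3 TPM in the GFP-positive libraries, and in C11 138 and 136 TPM against 28.4 and 33.0 TPM. In C43 it read 95.4 and 90.9 TPM against 23.7 and 21.9 TPM, and in C50 214 and 264 TPM against 27.4 and 26.0 TPM. Every GFP-positive library lay below every GFP-negative one, whatever the clone. The standard error of the difference, -2.11, was 0.189 (limma adjusted p 1.44e-06), and without C50 GFP-negative replicate 1 the difference was -2.04 (adjusted p 1.78e-06). The GFP-negative mean was 2.31, 4.47, 4.08 and 8.97 times the GFP-positive mean in C1, C11, C43 and C50, the last becoming 9.91 without GFP-negative replicate 1.

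Axl, whose product binds the ligand GAS6, was the lowest expressed member and showed the largest difference on this scale. Its GFP-negative libraries read 35.2 and 32.6 TPM in C1, 7.46 and 6.70 TPM in C11, 11.7 and 16.1 TPM in C43, and 1.85 and 6.33 TPM in C50. The GFP-positive libraries read 3.94 and 3.59 TPM in C1, 0.62 and 1.04 TPM in C11, 0.31 and 0.95 TPM in C50, and 0.28 TPM and a listed 0 in C43. The fractions did not overlap in any of the 4 clones, which held for Axl and Ankrd1 among the members and for 12.2% of all genes in this direction (6.72% in the other). Pooled over clones they did overlap, because the GFP-positive C1 libraries lay above the lower GFP-negative C50 library. The difference was -2.56 with standard error 0.274 (limma adjusted p 6.96e-06), and -2.78 without C50 GFP-negative replicate 1 (adjusted p 2.15e-07). In TPM, the GFP-negative mean was 9.0 times the GFP-positive mean in C1, 8.53 times in C11 and 6.49 times in C50, or 10.05 times there without GFP-negative replicate 1.

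Ajuba was lower in the GFP-positive mean of each clone. It read 123 and 145 against 80.4 and 80.9 TPM in C1, 136 and 136 against 59.1 and 69.1 TPM in C11, and 104 and 108 against 41.7 and 32.3 TPM in C43, the GFP-negative libraries first. In C50 it read 77.8 and 180.2 against 88.7 and 68.0 TPM. The fractions were separate in C1, C11 and C43 and overlapped in C50, through GFP-negative replicate 1. Over clones it differed by -0.98, standard error 0.162 (limma adjusted p 0.000292), and by -1.12 without that library (adjusted p 1.9e-06).

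Wwtr1 followed the same layout at a smaller size. It read 66.5 and 72.7 against 48.6 and 50.1 TPM in C1, 59.2 and 64.0 against 38.1 and 39.5 TPM in C11, and 56.6 and 54.6 against 33.0 and 29.1 TPM in C43. In C50 it read 35.8 and 61.1 against 39.6 and 41.4 TPM, where GFP-negative replicate 1 lay lowest. Its difference of -0.54 (standard error 0.106, limma adjusted p 0.00106) became -0.64 without that library (adjusted p 1.16e-06).

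The other 5 members were not called, and their GFP-negative and GFP-positive values overlapped over the clones. Yap1, the paralog of Wwtr1, was 17.8 ± 3.36 TPM in GFP-negative and 17.8 ± 3.92 TPM in GFP-positive libraries (SD, n = 8 each, clones included), a difference of -0.01 with standard error 0.139 (limma adjusted p 0.966). Tead1 had a median of 10.1 TPM (6.39 to 13.7) in GFP-negative and 7.60 TPM (5.14 to 15.8) in GFP-positive libraries, a difference of -0.24 (adjusted p 0.385). It was -0.52 and called among the libraries with more genes detected (adjusted p 0.0422), and 0.09 among those with fewer (adjusted p 0.917). The 2 sets do not compare the fractions in the same clones. Tead4 had medians of 13.2 TPM (6.82 to 17.4) and 12.6 TPM (9.36 to 16.04), with an adjusted p of 0.878. Lats2 differed by 0.01 (standard error 0.232) and Amotl2 by 0.09 (standard error 0.208), with adjusted p of 0.973 and 0.778. Without C50 GFP-negative replicate 1 both differences turned, to -0.19 and -0.11, and neither was called (adjusted p 0.323 and 0.443). Both genes are known targets of the pathway, as Ankrd1 and Axl are.

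Among the 8 clone libraries with more genes detected, the 4 called genes stayed called (limma adjusted p 0.00101 to 0.00346). Among the 8 with fewer genes detected none passed, with Ankrd1 at -1.90 (adjusted p 0.0518), Axl at -2.69 (0.0612), Ajuba at -0.75 (0.264) and Wwtr1 at -0.43 (0.322). The 2 sets are not balanced. The set with more genes holds no C1 GFP-negative library, and the set with fewer holds no C11 GFP-negative library. With clone as a covariate, that clone adds nothing to the fraction difference of its set. The set with fewer also holds the C50 library that stood apart. The G2 and M phase genes also separated the fractions, with summed TPM of 1705 to 2949 in GFP-negative and 777.2 to 1386 in GFP-positive libraries, and all 24 were called lower. The summed principal cell markers, Aqp2 not among them, were 583.4 to 1381 TPM in GFP-negative and 1223 to 3573 TPM in GFP-positive libraries. Intercalated cell markers, 3 of 10 at a mean of 1 TPM or more in either fraction (Car2, Atp6v1b1 and Rhbg), summed to 199.8 to 330.4 and 324.2 to 618.8 TPM, with Foxi1, Slc4a1 and Slc26a4 averaging at most 0.0687 TPM. Leukocyte markers summed to 17.4 to 31.6 and 12.3 to 21.7 TPM. The part of these lists in the members' differences was not tested.

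**Figure D2:**
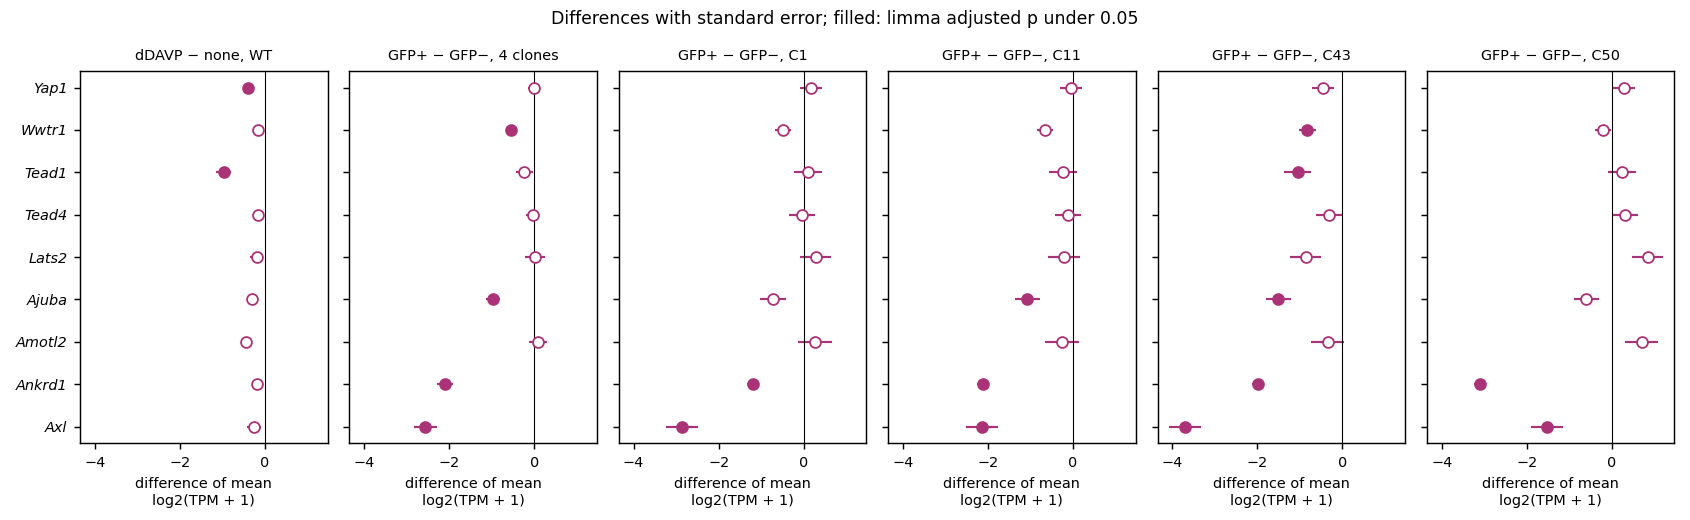
Differences of mean log2(TPM + 1) with their standard errors (x axes) for the 9 genes (rows), for dDAVP in WT cells, for GFP-positive minus GFP-negative over 4 clones and within each clone. Filled points have a limma adjusted p under 0.05. Ankrd1 and Axl are filled in all 5 GFP panels, and Yap1 and Tead1 are filled in the dDAVP panel.

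Clone by clone, the same direction recurred for Ankrd1 and Axl. Both were called lower in each of the 4 clones. In C1 they were the only members called, against 7.22% of all genes called, 4.91% lower and 2.31% higher. In C11, with 7.94% of genes called, 5.7% lower and 2.23% higher, Ajuba was the third (-1.08, limma adjusted p 0.0491). In C50, with 26.6% of genes called, 13.8% lower and 12.8% higher, Ankrd1 and Axl were again the only members called. In C43, 5 members were called lower, where 16.3% of genes were called, 12% lower and 4.29% higher: Axl (-3.71), Ankrd1 (-1.98), Ajuba (-1.51), Tead1 (-1.06) and Wwtr1 (-0.82), with adjusted p of 8.75e-05, 5e-06, 0.00559, 0.0481 and 0.0136. In C43, 8 of the 9 members, all but Tead4, were lower without overlap, as were 42.1% of all genes. The Tead1 libraries there read 10.4 and 13.7 TPM in GFP-negative and 5.31 and 5.14 TPM in GFP-positive cells. The latter lay just below the lowest dDAVP-treated WT library (5.32 TPM). In C50, Lats2 read 10.8 and 31.1 TPM in GFP-negative and 36.1 and 31.7 TPM in GFP-positive cells, a difference of 0.84 (adjusted p 0.112) that was 0.12 (adjusted p 0.789) without GFP-negative replicate 1. 

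Ankrd1 stayed called in every clone, and Axl in C1 and C43, whichever library of the clone was left out (limma adjusted p of Axl 0.00893 to 0.0135 in C1 and 0.000789 to 0.00193 in C43). Calls lost without a library follow. In C11, Ajuba was lost without any 1 of the 4 libraries (limma adjusted p 0.153 to 0.277), and Axl without GFP-negative or GFP-positive replicate 1 (0.0562 and 0.0663). In C43, Tead1 was lost without any 1 of the 4 libraries (0.112 to 0.243), and its change was not called after median-ratio scaling (-0.89, adjusted p 0.0809). Wwtr1 was lost there without GFP-negative replicate 1 or 2 or GFP-positive replicate 2 (0.0929, 0.0628 and 0.0962), and Ajuba without GFP-positive replicate 2 (0.0609). In C50, Axl was lost without GFP-positive replicate 1 (0.107). Without GFP-negative replicate 1 of C50, the library that stood apart, Ajuba went from -0.60 to -1.20 in that clone and Wwtr1 from -0.20 to -0.58. Axl was then at -2.20 and Ankrd1 at -3.26. Tead4 turned from 0.31 to -0.17, Yap1 went from 0.30 to 0.025 and Tead1 from 0.23 to 0.063. Without replicate 2 of that fraction, which leaves the library that stood apart alone, Lats2, Amotl2 and Tead4 were at 1.56, 1.52 and 0.79. Axl was then at -0.83, Ajuba at -0.0030 and Wwtr1 at 0.17. Each of these fits leaves 1 GFP-negative library in C50, so only sizes are given.

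The size of the GFP difference depended on the clone for Ankrd1. Taking C1, C11, C43 and C50 in turn, it was -1.20, -2.13, -1.98 and -3.11, under a shared standard error of 0.134. The interaction of fraction and clone had a limma adjusted p of 0.00397, where 0.869% of all genes were called. Axl, at -2.87, -2.15, -3.71 and -1.52 in the same order, did not pass (interaction adjusted p 0.221). For Lats2 the differences were 0.29, -0.21, -0.86 and 0.84, with an interaction p of 0.0397 that did not survive adjustment (adjusted p 0.359). Without GFP-negative replicate 2 of C50, which leaves the library that stood apart alone in its group, Wwtr1, Lats2, Ajuba, Amotl2 and Axl had a called interaction as well (adjusted p 0.00201 to 0.0041), where 38.6% of all genes did. Without the library that stood apart, Ankrd1 was the only member called (adjusted p 0.00118).

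Clones also differed in a model with fraction as a covariate, which fits 1 clone difference for both fractions. Amotl2, Axl and Ankrd1 were called (limma adjusted p 0.000676, 0.00247 and 0.0367), 3 of 9 members against 28% of all genes. For Ankrd1 the order of clones depended on the fraction. C50 was highest in GFP-negative cells (239 TPM) but below C11 in GFP-positive cells (26.7 and 30.7 TPM). Ankrd1 lost its call with every gene above 0 tested (adjusted p 0.112), and Amotl2 under 1 of 24 alternatives (adjusted p 0.165). Amotl2 was highest in C1, at 262 and 385 TPM in GFP-negative and 389.9 and 378 TPM in GFP-positive libraries. It was lowest in C43, at 108 and 133 against 106 and 82.3 TPM, and in C50, at 41.4 and 131 against 129 and 113 TPM. The ratio of GFP-positive to GFP-negative Amotl2 means was 0.841 in C11 and 0.784 in C43, and 1.19 and 1.40 in C1 and C50. Without C50 GFP-negative replicate 1 the C50 ratio was 0.924 and the Amotl2 difference in C50 went from 0.70 to -0.12, neither called (adjusted p 0.216 and 0.787). For Ankrd1 the call was lost without any 1 of the 10 libraries C1 GFP-positive replicates 1 and 2 and all libraries of C11 and C43 (adjusted p 0.0529 to 0.0895). Without C50 GFP-negative replicate 1, Wwtr1, Lats2 and Ajuba were called as well (adjusted p 0.00149, 0.00157 and 0.00133). The same 3 genes were also called after median-ratio scaling (adjusted p 0.00488, 0.0237 and 0.0167). Calls over all genes moved as well, between 2744 and 5889 when 1 library at a time was left out, against 3669 as reported. The share of all genes in each of these fits is not reported here, so the gain is not a result about the members.

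Over all 10 groups, the order of the group means differed by gene. For Ankrd1 the 4 GFP-positive groups took the last 4 places (64.0, 30.7, 26.7 and 22.8 TPM in C1, C11, C50 and C43), and none of these neighbours overlapped. Both WT groups lay in the middle and overlapped each other, and WT with dDAVP also overlapped C43 GFP-negative (93.2 TPM), while C50 GFP-negative was on top (239 TPM). Ajuba had the same last 4 groups, with C1, C50 and C11 overlapping in turn at 80.6, 78.3 and 64.1 TPM, and C43 lowest at 37.0 TPM without overlap. WT cells without dDAVP had its highest mean (152 TPM), below the remaining C50 GFP-negative library (180.2 TPM) if the one that stood apart is left out. Wwtr1 ran from 69.6 TPM in C1 GFP-negative to 31.1 TPM in C43 GFP-positive cells, and the GFP-positive groups of C50, C11 and C43 were its last 3. For Axl, C1 GFP-negative led at 33.9 TPM, ahead of C43 GFP-negative at 13.9 TPM without overlap, and C11, C50 and C43 GFP-positive came last at 0.83, 0.63 and 0.14 TPM.

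In the orders of the remaining members most neighbours overlapped. Yap1 ran from 21.7 TPM in C1 GFP-positive to 13.9 TPM in C43 GFP-positive cells, with gaps between neighbours only above and below C50 GFP-positive (17.0 TPM). In Tead1 the sole gap was between WT dDAVP (6.40 TPM) and C43 GFP-positive (5.22 TPM) at the bottom, and in Tead4 it was at the top, between C11 GFP-negative (16.6 TPM) and C11 GFP-positive (15.2 TPM). Lats2 led in C1 GFP-positive (38.3 TPM) and had its sole gap above C43 GFP-positive (11.0 TPM). Amotl2 had gaps below the 2 C1 groups and between C43 GFP-negative (120.3 TPM) and C43 GFP-positive (94.4 TPM).

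**Figure D3:**
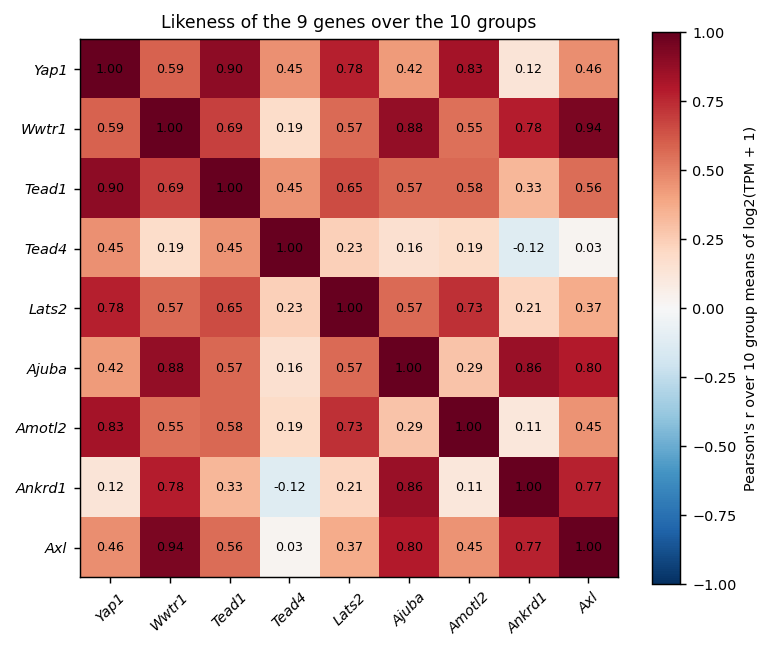
Pearson's r between each pair of the 9 genes over the 10 group means of log2(TPM + 1), from -1 (blue) to 1 (red). Wwtr1, Ajuba, Ankrd1 and Axl form a block with r of 0.773 to 0.943, while Yap1 and Ankrd1 have r of 0.125.

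Across the 10 group means the members fell into patterns that their fractions and clones share. Wwtr1 and Axl had the highest r, 0.943, followed by Yap1 and Tead1 with 0.898. Wwtr1 had an r of 0.877 with Ajuba and 0.784 with Ankrd1, whereas Yap1 had 0.425 and 0.125 with the same genes. Amotl2 tracked Yap1 (0.835) and Lats2 (0.731), and had an r of 0.111 with Ankrd1. Tead4 had no r above 0.454. These are descriptions over 10 points, of which 8 are fractions of 4 clones.

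Among 9628 other genes with a mean of at least 5 TPM, the pattern closest to Ankrd1 over the 10 groups was that of Cdk2ap1 (r 0.984), then Cinp (0.98) and Ccdc124 (0.974). Among the genes closest to Axl were Cct6a (0.98) and Adss (0.979), and closest to Ajuba were Ubtd2 (0.986), Sbk1 (0.971) and Sox9 (0.97), the last a transcription factor of duct progenitors. Sox9 was 88.3 ± 16.8 TPM in GFP-negative and 42.1 ± 17.6 TPM in GFP-positive libraries (SD, n = 8 each). Wwtr1 was most like Antxr2 (0.98), Anapc7 (0.973) and Mtf2 (0.968). Amotl2 was most like Ctnnb1 (0.974), which encodes beta-catenin, then Paics (0.961) and Usp4 (0.955). Closest to Yap1 were Stk35 and Magi3 (both 0.948) and Palm3 (0.928), and to Tead1 Zcchc3 (0.913), Myef2 (0.912) and Mrm2 (0.899). Tead4 was nearest to Zfp768 (0.94), Naglu (0.927) and Zbtb42 (0.921), and Lats2 to Peds1 (0.955), Pck2 (0.944) and Dcaf1 (0.939).

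The dDAVP change and the GFP difference were then set against each other, in a contrast chosen after the values were seen and fitted over all 22 libraries. The 2 differed for Ankrd1 and Axl, where the GFP difference was lower than the dDAVP difference by -1.93 (standard error 0.142, limma adjusted p 3.48e-07) and -2.30 (standard error 0.322, adjusted p 0.000224). Of all 13244 genes 8.03% were called in this direction. For Yap1 (0.39), Tead1 (0.73), Wwtr1 (-0.37) and Ajuba (-0.68) the contrast did not pass (adjusted p 0.228, 0.105, 0.138 and 0.0762). A call in 1 comparison alone is thus not shown to differ between the comparisons for those 4 genes.

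Other genes of the pathway moved in both directions. Of 18 further target signature genes 13 were tested between fractions, of which 5 were called lower and 3 higher in GFP-positive cells, with a median of -0.27. Over all genes 23.2% were called lower and 12.1% higher, with a median of -0.0628, which is also the background of the next 2 lists. Gadd45a, a growth arrest and stress gene, differed by -2.10 (limma adjusted p 1.17e-07), at 146 ± 16.6 TPM in GFP-negative and 35.2 ± 14.5 TPM in GFP-positive libraries (SD, n = 8 each). Ccn2, the matricellular protein also called CTGF, differed by -0.75 (adjusted p 0.000489), but in C1 its means were 3241 and 3249 TPM. F3, which encodes tissue factor, was higher by 0.72 (adjusted p 4.94e-06), from 3308 ± 951 to 5384 ± 1237 TPM (SD, n = 8 each). Ptpn14, a phosphatase that binds YAP1 and stands on the next list too, was higher by 0.62 (adjusted p 0.038) and Rbms3, an RNA-binding protein, by 0.56 (adjusted p 0.00965). Within single clones both were called in C50 alone (1.475 and 1.251), the clone with the library that stood apart. Under median-ratio scaling 4 signature genes were called in each direction. Ccn1, the matricellular protein CYR61, named after its values were seen, was not called (0.14, adjusted p 0.448) at 6435 to 18084 TPM in the clones.

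A list of 28 kinase cassette genes and upstream regulators also holds Tead2 and the TEAD cofactors Vgll3 and Vgll4. Of these 28 genes 26 were tested, and 9 were called lower and 2 higher in GFP-positive cells, with a median of -0.15. The lower ones included the FERM protein Frmd6 (-1.29, limma adjusted p 4.85e-05), the kinase Map4k4 (-0.95, adjusted p 0.000988), Wwc2, a relative of the scaffold KIBRA (-0.86, adjusted p 0.00275), and the TEAD cofactor Vgll3 (-0.67, adjusted p 0.000491). Of 19 actin and SRF/MRTF genes 16 were tested, with 8 called lower and 1 higher and a median of -0.38. Among the lower ones were Filip1l (-1.02, adjusted p 2.76e-06), the actin crosslinker Flna (-0.86, adjusted p 0.000425), the tropomyosin Tpm1 (-0.57, adjusted p 7.09e-07), the calponin Cnn2 (-0.41, adjusted p 1.35e-05) and the focal adhesion protein Zyx (-0.38, adjusted p 0.0171).

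**Figure D4:**
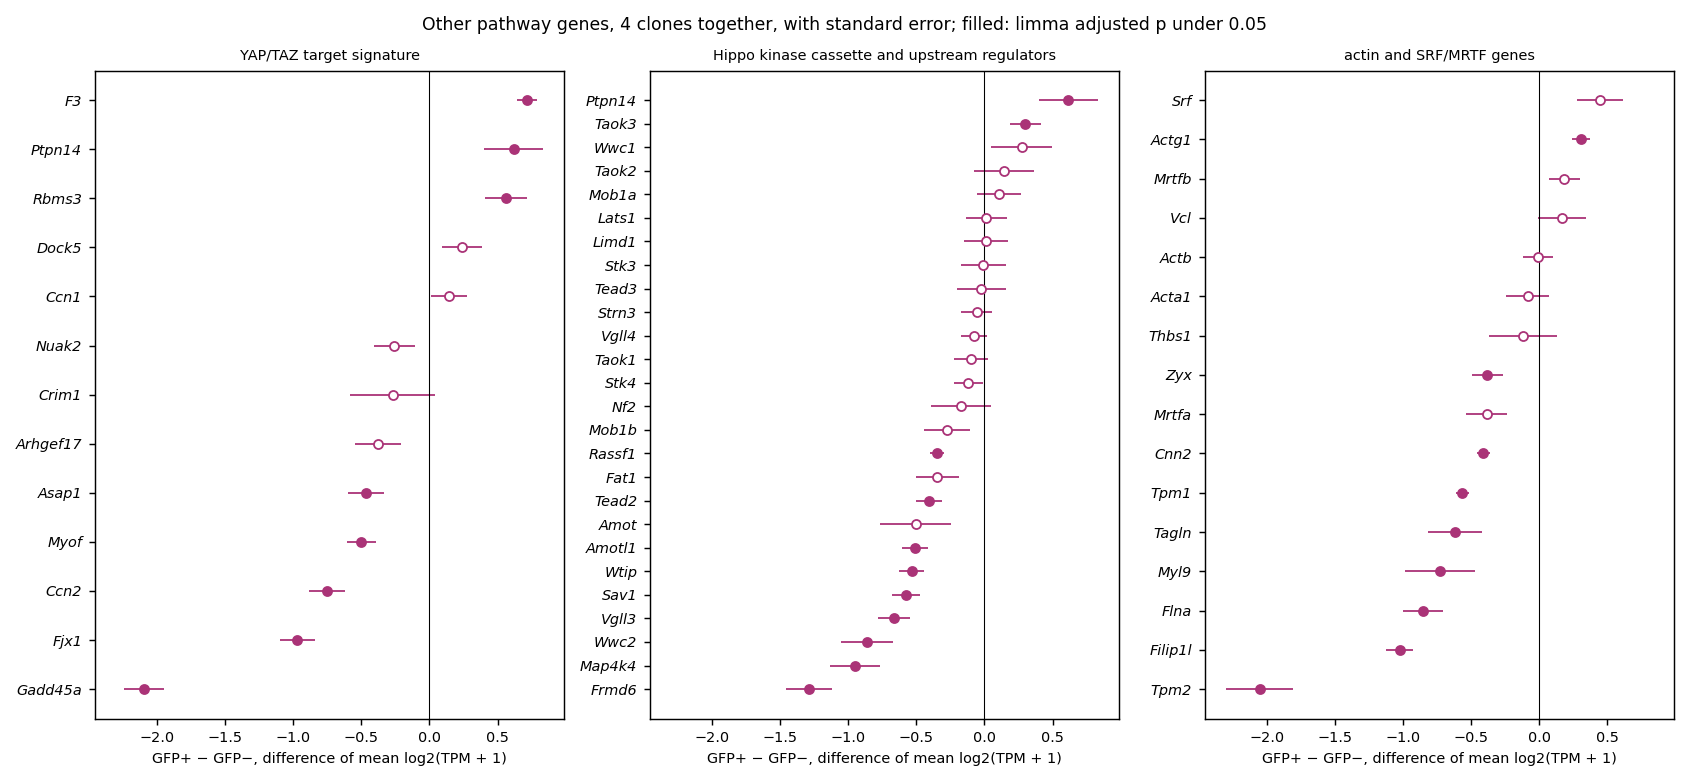
GFP-positive minus GFP-negative differences of mean log2(TPM + 1) over 4 clones (x axes) with standard errors for tested genes of 3 lists (rows). Filled points have a limma adjusted p under 0.05. Gadd45a lies lowest in the target signature at -2.10, and F3 highest at 0.72.

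With dDAVP in WT cells, where 6.51% of all genes were called lower and 2.37% higher, genes of the same lists were called as follows. In the target signature Nuak2, a kinase of the AMPK family, fell by 0.41 (limma adjusted p 0.0131) and Ccn2 fell by 0.34 (adjusted p 0.0497), while F3 rose by 0.25 (adjusted p 0.0452), 3 of 14 tested. After median-ratio scaling none of the 14 was called. In the kinase cassette list 4 of 26 were called, all lower: Wwc2 (-0.76, adjusted p 0.00653), Taok2 (-0.58, adjusted p 0.0441), Nf2, which encodes the tumour suppressor merlin (-0.50, adjusted p 0.0318), and the TEAD cofactor Vgll4 (-0.42, adjusted p 0.0121). Of 16 actin list genes Flna (-0.75, adjusted p 0.0435) and Tpm1 (-0.56, adjusted p 0.00679) were called. After median-ratio scaling 1 gene of each of these 2 lists was called lower.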

How the data were processed

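The authors deposited expression as TPM per gene and library, in a table of 55415 lines for 22 libraries in 10 groups. The labels' protocols give SMART-Seq HT for the cDNA and Nextera XT for the libraries, which were read in pairs. STAR and RSEM are named in the submitters' processing notes. Their versions, the genome build and the annotation are not given in the sources used here. Lines sharing a symbol were summed, leaving 54514 entries. No member's symbol was shared, and no 2 libraries of a group held identical values.

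Linear models in limma 3.58.1 (R 4.3.3) were fitted to log2(TPM + 1), a pseudocount of 1, for each gene whose TPM averaged 1 or more in the comparison, with a mean-variance trend and Benjamini-Hochberg adjustment over all genes tested. All tests were two-sided. For dDAVP the 6 WT libraries were fitted alone, and for GFP the 16 clone libraries, with clone as a covariate. Differences within clones came from a mean per clone and fraction with a shared spread. F-tests gave the interaction and the clone differences. The script was tested on simulated data. Of the other pathway genes, up to 5 called genes per list and comparison above a mean of 5 TPM with the largest change were named, and up to 3 genes most like each member, of which 1 is not reported here. The members and lists were chosen with earlier results of these data known.

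Alternatives were a pseudocount of 0.1, other filters on low TPM, median-ratio scaling, quantile normalization, no trend, a replicate block, detected genes per library as a covariate or a split, clone means as replicates, and leaving out each library or clone. The split followed the widest gap in the number of genes with TPM above 0, between 10 libraries at 17206 to 20288 and 12 at 23174 to 31393.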

Additional observations from a re-analysis of the deposited data

Results flagged for a closer look

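The GFP difference of Ankrd1 was not the same in the 4 clones. The interaction of fraction and clone had a limma adjusted p of 0.00397, with the smallest difference in C1 (-1.20) and the largest in C50 (-3.11), and lower values in GFP-positive cells in 4 of 4 clones. Over 22 alternatives that adjusted p ranged from 0.000746 to 0.026.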

How the results depend on the processing

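Of 1224 values of the 9 genes under the alternatives, 1130 kept their side of the threshold, 56 lost a call and 38 gained one. Of the 1130, 692 kept their direction, 385 were F-tests with no direction, and 53 changed sign without being called either way. None of the called values changed sign. The number of genes called with dDAVP in WT cells, 1198, was 442 with every gene above 0 tested, 757 with median-ratio scaling, 691 without a trend, 2694 with the number of detected genes as covariate and 101 in libraries with more genes detected. Of the 9 members 2 were called, against 4 at a mean TPM of at least 5 or with that covariate, 1 with either scaling, and 0 with every gene above 0 or in libraries with more genes detected. The same model in libraries with fewer genes detected was not run, since it holds 1 library per group. Between fractions over the clones 4626 genes were called, 250 in the libraries with fewer genes detected, where 0 members were, and 2406 with clone means as replicates. With every gene above 0 tested the counts were 609 in C1 (947 as reported), 607 in C11 (1041), 1346 in C43 (2134) and 2291 in C50 (3486). With the clone fitted alone, 4 members were called in C1, 2029 genes in C11, and 22 genes with 1 member in C50. Quantile normalization gave 234 interaction calls (114). For clone differences, 399 genes were called in GFP-negative libraries alone (3669), and 6 members rather than 3 under either scaling or in GFP-positive libraries alone. The causes were not tested.

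Leaving out 1 library at a time gave 314 to 2038 genes and 0 to 4 members for dDAVP, and 4170 to 6043 genes and 4 members between fractions. It gave 377 to 592 genes in C1 with 2 members, 318 to 371 in C11 with 1 to 2, 858 to 1830 in C43 with 2 to 4, and 1793 to 6820 in C50 with 1 to 5. Interaction calls ranged from 42 to 5038 genes and 1 to 6 members, and clone differences from 2744 to 5889 genes and 2 to 6 members. Where 1 library of a group remained, its spread was taken from the other groups.

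Deviations of same-numbered libraries had r of -0.208 to -0.0254 in WT cells, and of 0.0544, 0.0151, 0.203 and 0.0825 between the fractions of C1, C11, C43 and C50. Since r passed 0.1 in C43 alone, the numbers are not taken as a pairing. With a replicate block, 122 genes and 0 members were called with dDAVP (Yap1 adjusted p 0.176, Tead1 0.0999 in limma). Between fractions the block kept the same 4 members (adjusted p 9.27e-05 to 0.003). Since TPM keep no depth, the counting error of low genes such as Axl is unknown.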
